A study of Mus musculus with 6 samples.

Results

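The genes described here are 10 forkhead transcription factor genes of palatal mesenchyme and epithelium, Foxf1, Foxf2, Foxd1, Foxd2, Foxc1, Foxc2, Foxp1, Foxp2, Foxl1 and Foxe1, picked by symbol from the 23420 genes of each count file. RNA sequencing compared the future anterior hard palate of C57BL/6 mouse embryos at E14.5 between mutants of genotype Shox2Cre/-;Nkx2.5F/F and controls of genotype Shox2Cre/+;Nkx2.5F/F, with 3 libraries in each group. Shox2 encodes a homeodomain transcription factor of the anterior palate, and the comparison asks what its loss changes in tissue that will form bone. Both groups carried a Cre allele at Shox2 and a floxed Nkx2-5 gene, so the control, although titled WT, was not a wild type. Since no label gives the number of embryos per library, the p-values speak only for the spread among these 6 libraries, which may be technical.

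Forkhead factors bind DNA through a winged-helix domain whose recognition helix lies in the major groove. In the palatal shelves, neural crest-derived mesenchyme receives Sonic hedgehog from the overlying epithelium, and forkhead genes such as Foxf1 and Foxf2 are among the genes that respond to it in mouse. Loss of Foxf2 or of Foxe1 gives cleft palate in mice. Foxe1 is known from oral and thyroid epithelium rather than from mesenchyme. Foxf1, Foxf2, Foxd1, Foxd2, Foxc1, Foxc2 and Foxl1 are known from mesenchyme, vessels or skeletal precursors. Foxp1 and Foxp2 are not limited to these tissues.

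The stretch of transcript that codes for this helix is shown for 8 members to make visible how closely they are related and how far reads from relatives could be confused. The sequences are 36 bases of GENCODE M21 transcripts on GRCm38, 5′ to 3′ in the sense of each gene, and capitals mark bases that differ from Foxf1:
Foxf1: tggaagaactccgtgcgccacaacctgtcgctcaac
Foxf2: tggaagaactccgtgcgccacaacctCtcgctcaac
Foxl1: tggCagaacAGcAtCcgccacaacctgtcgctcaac
Foxd1: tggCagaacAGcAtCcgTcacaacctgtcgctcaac
Foxd2: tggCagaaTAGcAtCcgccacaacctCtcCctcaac
Foxc1: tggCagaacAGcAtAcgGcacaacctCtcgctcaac
Foxc2: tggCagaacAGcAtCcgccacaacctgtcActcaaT
Foxe1: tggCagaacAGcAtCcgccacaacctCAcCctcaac
Foxf2 differed from Foxf1 at 1 base, Foxl1 at 5, Foxd1 at 6, Foxc1 and Foxc2 at 7, and Foxd2 and Foxe1 at 8. In Foxf1 the stretch lies at chr8:121084672-121084707 on the plus strand, and in Foxf2 at chr13:31626509-31626544 on the plus strand. The longest run of identical bases between the transcripts of a pair was 53 bases for Foxc1 and Foxc2, 47 for Foxd1 and Foxd2, 41 for Foxf1 and Foxf2 and 35 for Foxp1 and Foxp2. The sources used here do not give how the authors' counting treated reads that fall in such runs.

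Total counts were 53331397, 52668242 and 53049171 in mutant replicates 1, 2 and 3, against 81950407, 105125474 and 134813429 in the controls, so depth and genotype coincided. Shox2 was at 5.30, 4.12 and 3.13 CPM in the mutants and at 88.2, 68.2 and 81.7 CPM in the controls, where CPM are counts scaled to a common library size by edgeR's TMM method. Mutant replicate 1 and control replicate 1 stood apart from their groups, and even values made up 99.7% of the counts from 5 to 50 in mutant replicate 1, against 63.6% to 73.0% in the other 5 libraries. The levels of cell type markers also differed. All 12 epithelial markers were called higher in the mutant, with a summed level of 5537 to 6244 CPM in mutants and 1055 to 1762 CPM in controls. All 5 motile cilia markers in the files (568 to 616 CPM in mutants, 35.6 to 148 CPM in controls) and all 8 macrophage markers tested (304 to 361 CPM in mutants, 74.5 to 130.3 CPM in controls) were higher too. Markers of palate mesenchyme summed to 15017 to 16062 CPM in mutants and 9987 to 19594 CPM in controls, with 4 of 10 called lower (Pdgfra, Prrx2, Twist1 and Twist2). That sum rests largely on Col1a1, Col1a2 and Col3a1, which averaged 4735, 4310 and 3926 CPM in mutants. Pdgfra, Prrx1, Prrx2, Twist1 and Twist2 were lower in every mutant than in every control, Col3a1 was higher, and the rest overlapped. Of the skeletal muscle markers, 7 of 8 were called lower by edgeR, against 1 by limma-voom (3.16 to 3.70 CPM in mutants, 6.995 to 72.0 CPM in controls). Of the nerve and glia markers 1 of 8 was higher and 4 lower (102 to 126 CPM in mutants, 91.5 to 173 CPM in controls), and of the mural cell markers 2 of 8 were higher (760 to 836 CPM in mutants, 589 to 639 CPM in controls). No marker in these lists had 0 counts in all 6 libraries.

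All 10 forkhead members passed the filter on low counts. In the mutant, 2 members were called higher (Foxe1 and Foxp1) and 3 lower (Foxf1, Foxl1 and Foxd2), at a Benjamini-Hochberg adjusted p under 0.05 in edgeR's quasi-likelihood test over 16604 genes. The other 5 (Foxf2, Foxd1, Foxc1, Foxc2 and Foxp2) did not pass. Of all genes tested, 45.8% were called, 24.1% higher and 21.7% lower, so 5 of 10 members is a share near the background and is not a result about the group. Mutant and control values did not overlap for 2 members that were higher and 4 that were lower, where 29.7% and 29.2% of all genes tested were so separated. The median log2 fold change (mutant over control) of the members was -0.35, against -0.00 over all genes tested, and the members ranged from -1.28 to 1.88.

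**Figure D1:**
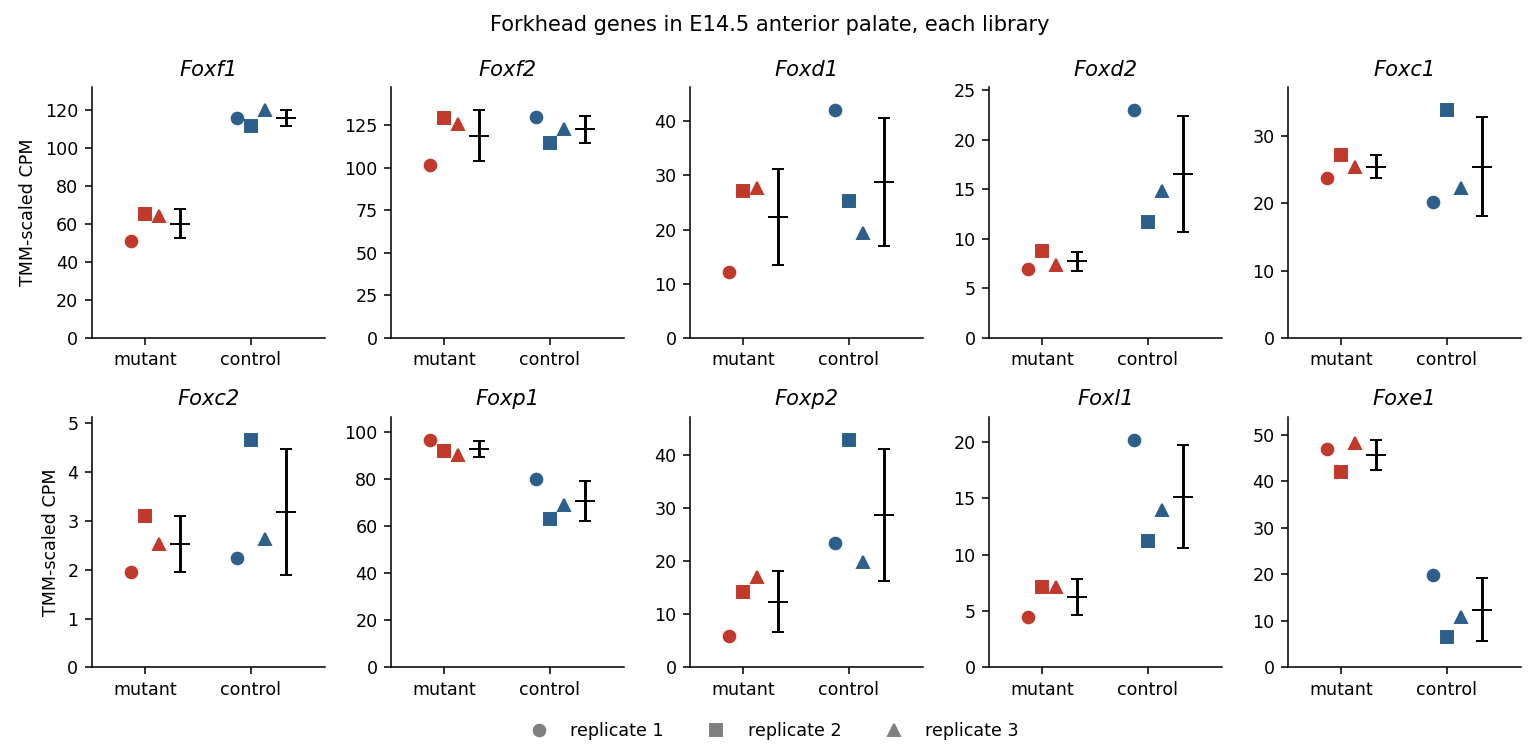
Level of each of the 10 members in every library, in TMM-scaled CPM on linear axes that start at 0, with mutants left of controls; points are libraries and bars are the group mean and SD (n = 3 each). Foxf1, Foxd2, Foxl1 and Foxp2 (the last not called) lay lower in every mutant than in every control, Foxe1 and Foxp1 lay higher, and Foxf2 and Foxc1 had near-equal means.

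Per length, Foxf1 and Foxf2 were the leading members in the control palate. Levels between genes are given as CPM per kilobase of the longest coding transcript. Foxf2 averaged 50.3 ± 6.36 in mutants and 51.8 ± 3.27 in controls, and Foxf1 averaged 24.96 ± 3.26 in mutants and 48.0 ± 1.75 in controls (SD, n = 3 each). In controls Foxp1 followed at 9.87 ± 1.19, then Foxd2 at 6.37 ± 2.26, Foxd1 at 5.70 ± 2.33, Foxl1 at 5.59 ± 1.69, Foxe1 at 4.43 ± 2.41, Foxc1 at 4.36 ± 1.26, Foxp2 at 4.25 ± 1.83 and Foxc2 at 1.17 ± 0.476. Each of these overlapped its next neighbour in the control libraries, apart from the steps between Foxf1 and Foxp1 and between Foxp2 and Foxc2. In mutants the order was Foxf2, Foxf1, Foxe1 (16.3 ± 1.17), Foxp1 (12.97 ± 0.473), Foxd1 (4.40 ± 1.74), Foxc1 (4.36 ± 0.295), Foxd2 (2.97 ± 0.367), Foxl1 (2.31 ± 0.579), Foxp2 (1.83 ± 0.851) and Foxc2 (0.930 ± 0.210). The first 4 of that order were separated from each other in the mutant libraries, and by mean Foxe1 ranked 3 in mutants and 7 in controls. The order depends on the length used. Over all annotated exons (13751 bases in place of 7177) Foxp1 ranked 4 in mutants and 6 in controls, and over 16346 bases in place of 6760 Foxp2 ranked 10 in mutants and 9 in controls.

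As shares of the summed per-length level of the members, Foxf1 made up 19.8%, 21.0% and 20.8% in mutants, against 31.3%, 34.7% and 36.1% in controls. Foxf2 made up 40.3%, 42.5% and 41.4% in mutants and 35.8%, 36.3% and 37.8% in controls. Foxe1 made up 15.7%, 11.6% and 13.4% in mutants and 4.60%, 1.77% and 2.79% in controls. These shares are set within a library and do not depend on how libraries were scaled. A pair of genes thus supplied most of the measured forkhead transcript of this set in both groups, with Foxf2 ahead of Foxf1 by a wide step in the mutants.

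**Figure D2:**
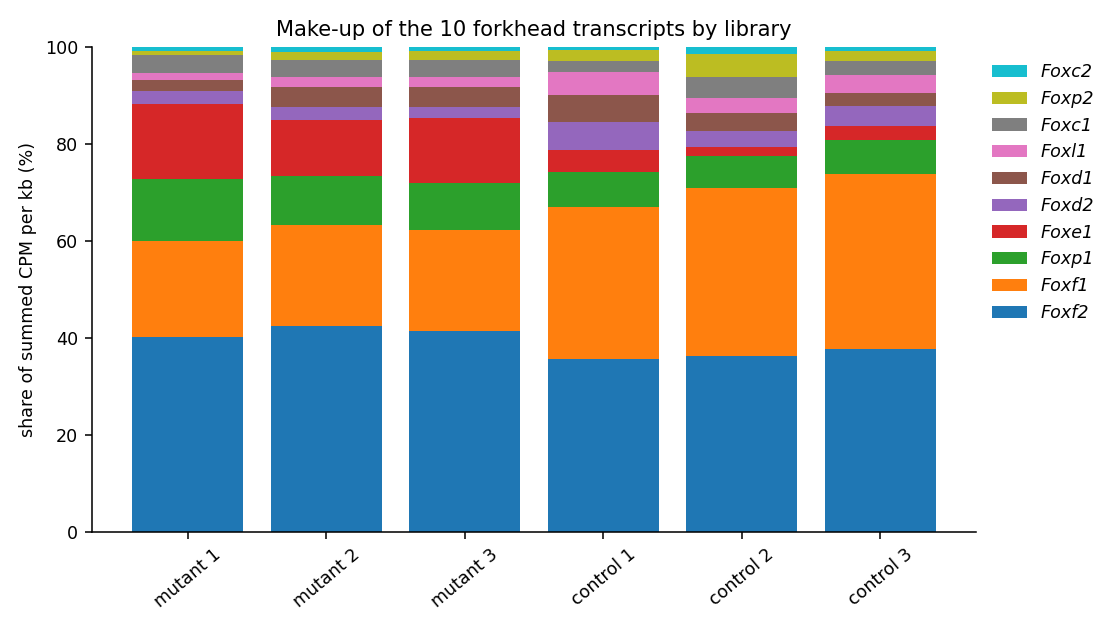
Share of the summed CPM per kilobase of coding transcript that each member supplied, in percent, 1 stacked bar per library with the 3 mutants left of the 3 controls. Foxf1 supplied 19.8% to 21.0% in mutants and 31.3% to 36.1% in controls, and Foxe1 11.6% to 15.7% in mutants and 1.77% to 4.60% in controls.

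Foxf1, a hedgehog-responsive factor of foregut, lung and facial mesenchyme, was lower in all 3 mutant libraries. It was measured at 51.2, 65.1 and 64.5 CPM in mutant replicates 1, 2 and 3, against 116, 112 and 120.1 CPM in the controls. All 3 mutant values lay well under the lowest control, and the controls lay close together, with an SD of 3.64% of their mean. The mean was 60.3 ± 7.87 CPM in mutants and 116 ± 4.22 CPM in controls (SD, n = 3 each), with a fitted log2 change, mutant over control, of -0.94 (SE 0.10, edgeR adjusted p = 0.000568). In bulk tissue, fewer cells of a type and less RNA per cell cannot be told apart, and the markers of mesenchyme and epithelium above moved with genotype. Foxf1 was set against single mesenchymal genes within each library. Per count of Twist1, a mesenchymal regulator that was itself lower in the mutant, Foxf1 stood at 0.320, 0.340 and 0.306 in mutants and 0.443, 0.432 and 0.496 in controls, which did not overlap. Per count of Prrx1 the values did not overlap either (0.0521, 0.0779 and 0.0906 in mutants, 0.112, 0.101 and 0.116 in controls). Per count of Pdgfra they met at the edge (0.167, 0.184 and 0.213 in mutants, 0.285, 0.212 and 0.275 in controls).

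Foxf2, the close paralog of Foxf1 and the member whose loss is best known for cleft palate in mice, did not pass the test. It was measured at 102, 129 and 126 CPM in mutants and 129.95, 115 and 123 CPM in controls. Mutant replicate 1 was the lowest of the 6 and the other mutants lay within the control range. The log2 change was -0.04 (SE 0.10, edgeR adjusted p = 0.758), with a 95% interval from -0.29 to 0.20, and its sign was positive in 3 of 18 alternative settings. Per count of Twist1, Foxf2 was higher in every mutant (0.636, 0.676 and 0.597) than in any control (0.495, 0.443 and 0.508), and per count of Prrx1 the groups overlapped. Per count of Pdgfra it was also higher in every mutant (0.331, 0.365 and 0.415) than in any control (0.319, 0.217 and 0.282). Twist1 and Pdgfra were themselves lower in the mutant.

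The ratio of Foxf1 to Foxf2 per length compares the paralogs within a library and is free of library scaling. It was 0.493, 0.493 and 0.502 in mutants, against 0.875, 0.954 and 0.955 in controls. The mutant libraries agreed closely, including replicate 1, in which both genes were lowest. The mean ratio was 0.496 ± 0.00503 in mutants and 0.928 ± 0.0456 in controls (SD, n = 3 each), a log2 difference of -0.90. An exact two-sided permutation test gave p = 0.1, which is the smallest p that 3 libraries against 3 allow, so the test cannot reach 0.05 here. The ratio shows unequal change of the paralogs and not that Foxf2 was unchanged.

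**Figure D3:**
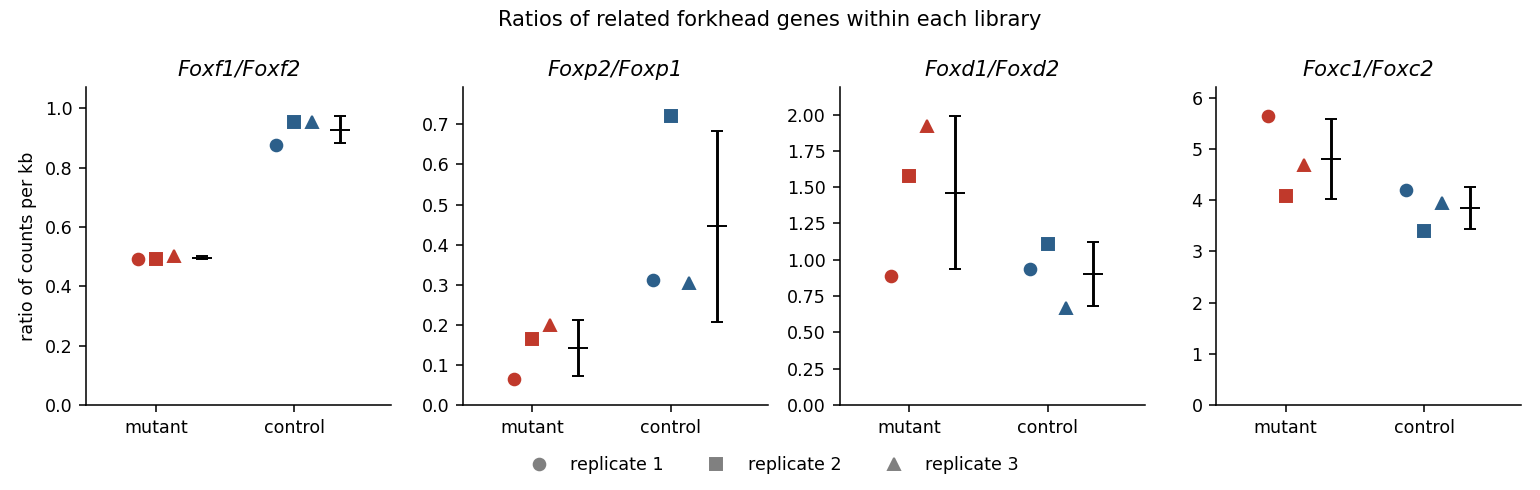
Ratio of CPM per kilobase within each library for pairs of members, mutants left of controls, with points for libraries and bars for the mean and SD (n = 3 each) on linear axes that start at 0. Foxf1 over Foxf2 was 0.493 to 0.502 in mutants and 0.875 to 0.955 in controls, and Foxp2 over Foxp1 was 0.0653 to 0.200 in mutants and 0.304 to 0.721 in controls.

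Ratios were computed for 6 pairs of members, and mutants and controls were separate for 2 of them, Foxf1 over Foxf2 and Foxp2 over Foxp1. The other 4 pairs overlapped. Foxd1 over Foxd2 was 0.888, 1.58 and 1.92 in mutants and 0.936, 1.11 and 0.666 in controls (exact permutation p = 0.3). Foxc1 over Foxc2 was 5.64, 4.08 and 4.69 in mutants and 4.20, 3.39 and 3.94 in controls (exact permutation p = 0.2). Exact permutation p was 0.2 for Foxl1 over Foxc2 and 0.8 for Foxf2 over Foxc1. With 6 pairs and a smallest p of 0.1, no adjusted p could pass 0.05.

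Foxl1, a factor of gut and facial mesenchyme that responds to hedgehog ligands in mouse, had the largest fall among the members that passed. It stood at 4.43, 7.16 and 7.13 CPM in mutants and at 20.2, 11.2 and 14.0 CPM in controls. Every mutant lay under every control, and control replicate 1 was well above the other controls. The mean was 6.24 ± 1.57 CPM in mutants and 15.1 ± 4.58 CPM in controls (SD, n = 3 each), with a fitted log2 change of -1.28 (SE 0.28, edgeR adjusted p = 0.00815). Without replicate 1 of both groups the log2 fold change was -0.83 and the call was the same. Per count of Twist1, Foxl1 was lower in every mutant (0.0277, 0.0374 and 0.0338) than in any control (0.0769, 0.0435 and 0.0577). Per count of Prrx1 the groups were only just separate (0.00451, 0.00856 and 0.01002 in mutants, 0.0195, 0.01016 and 0.0134 in controls). Per count of Pdgfra they overlapped (0.0144, 0.0202 and 0.0235 in mutants, 0.0495, 0.0213 and 0.0320 in controls).

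Foxd2 and Foxd1 are related factors of facial and kidney stromal mesenchyme. Foxd2 was at 6.98, 8.78 and 7.37 CPM in mutants and at 23.0, 11.7 and 14.8 CPM in controls, a log2 change of -1.10 (SE 0.26, edgeR adjusted p = 0.0112). The groups did not overlap, and control replicate 1 was again the highest. Without replicate 1 of both groups the log2 fold change of Foxd2 was -0.73, still called. Set against mesenchymal genes within each library, Foxd2 overlapped between the groups per count of Pdgfra (0.0227, 0.0248 and 0.0243 in mutants, 0.0564, 0.0221 and 0.0340 in controls) and per count of Twist1 (0.0436, 0.0459 and 0.0350 in mutants, 0.0877, 0.0451 and 0.0613 in controls). Per count of Prrx1 it did not overlap, but only just (0.00710, 0.01051 and 0.01036 in mutants, 0.0222, 0.01054 and 0.0143 in controls). Foxd1 was at 12.1, 27.0 and 27.7 CPM in mutants and at 42.1, 25.2 and 19.3 CPM in controls. The lowest value was mutant replicate 1 and the highest was control replicate 1, and the other 4 libraries interleaved. Its log2 change of -0.37 (SE 0.38, edgeR adjusted p = 0.451; 95% interval from -1.26 to 0.51) became 0.29 without replicate 1 of both groups, so its direction rested on those libraries.

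Foxc1 and Foxc2 act in the skeleton of the head and in blood vessels, and neither passed the test. Foxc1 was at 23.7, 27.2 and 25.5 CPM in mutants and at 20.3, 33.9 and 22.3 CPM in controls. The means were 25.5 ± 1.72 CPM in mutants and 25.5 ± 7.35 CPM in controls (SD, n = 3 each), with a log2 change of -0.00 (SE 0.19, edgeR adjusted p = 0.993; 95% interval from -0.46 to 0.45). Foxc2 was at 1.96, 3.11 and 2.53 CPM in mutants and at 2.25, 4.67 and 2.64 CPM in controls, with a log2 change of -0.33 (SE 0.34, edgeR adjusted p = 0.452; 95% interval from -1.12 to 0.46). For both genes control replicate 2 was the highest of the 6 libraries, and the mutants lay closer together than the controls. Markers of endothelium, a site of both genes, summed to 522 to 706 CPM in mutants and 444 to 594 CPM in controls. Of those 8 markers 0 were called by edgeR, and also 0 at an unadjusted p under 0.05, by DESeq2 or by limma-voom. Per 100 counts of these markers, Foxc2 was lower in every mutant (0.376, 0.440 and 0.400) than in any control (0.507, 0.786 and 0.470), and Foxc1 overlapped.

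Foxp1 and Foxp2 encode repressors that can pair with each other, and of the pair Foxp1 passed the test and Foxp2 did not. Foxp1 was at 96.9, 92.1 and 90.3 CPM in mutants and at 80.1, 63.2 and 69.2 CPM in controls. Every mutant lay above every control. The mean was 93.1 ± 3.40 CPM in mutants and 70.8 ± 8.56 CPM in controls (SD, n = 3 each), with a fitted log2 change of 0.39 (SE 0.09, edgeR adjusted p = 0.0123). With the summed log2 level of 4 Y-linked genes as a covariate, it was 0.21 and no longer called (edgeR adjusted p = 0.129). How far the Y-linked genes differed between the groups is not reported here. Foxp1 was not set against markers of any cell type.

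Foxp2 was at 5.96, 14.2 and 17.0 CPM in mutants and at 23.5, 42.9 and 19.8 CPM in controls. The groups did not overlap, but mutant replicate 1 was far below its group and control replicate 2 far above its own. The mean was 12.4 ± 5.76 CPM in mutants and 28.8 ± 12.4 CPM in controls (SD, n = 3 each), with a fitted log2 change of -1.21 (SE 0.43) that did not pass (edgeR adjusted p = 0.0515; 95% interval from -2.21 to -0.21). It passed in 6 of 18 alternative settings, among them the removal of control replicate 3 (-1.42, edgeR adjusted p = 0.0479). Without control replicate 2 it was -0.81 (edgeR adjusted p = 0.161). The ratio of Foxp2 to Foxp1 per length was 0.0653, 0.164 and 0.200 in mutants and 0.312, 0.721 and 0.304 in controls (exact permutation p = 0.1), without overlap. Per count of Pdgfra or of Prrx1, Foxp2 overlapped between the groups. Per count of Twist1 it did not (0.0373, 0.0743 and 0.0808 in mutants, 0.0897, 0.166 and 0.0820 in controls).

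Foxe1, the member known from oral epithelium, rose most. It was at 46.9, 42.0 and 48.2 CPM in mutants, against 19.8, 6.61 and 10.8 CPM in controls. The mutants lay close together and all above the highest control, while the controls spread over a 3-fold range, with replicate 1 at the top. The mean was 45.7 ± 3.27 CPM in mutants and 12.4 ± 6.77 CPM in controls (SD, n = 3 each), with a fitted log2 change of 1.88 (SE 0.36, edgeR adjusted p = 0.00490), or 3.69-fold. With the Y-linked covariate the log2 fold change was 1.12 and the call was the same. Foxe1 was next set against the 12 epithelial markers, of which all were higher in the mutant with a median log2 fold change of 1.63. Per 100 counts of these markers, Foxe1 stood at 0.810, 0.758 and 0.772 in mutants and 1.13, 0.626 and 0.612 in controls, which overlapped. The summed counts of these markers rest largely on Krt5, Krt15 and Krt14, which averaged 1720, 1366 and 914 CPM in mutants. Per count of the adhesion gene Cdh1 the groups overlapped as well (0.102, 0.114 and 0.119 in mutants, 0.161, 0.0917 and 0.0893 in controls). Per count of Trp63, a regulator of basal epithelial cells, Foxe1 was higher in every mutant (0.273, 0.284 and 0.299) than in any control (0.171, 0.130 and 0.122), and likewise per count of Epcam (0.195, 0.287 and 0.270 in mutants, 0.156, 0.0856 and 0.0972 in controls). Epcam (log2 fold change 0.84) and Trp63 (0.91) rose least of the 12 markers, so a ratio to them is apt to be higher in mutants. Esrp1 (1.45), Krt14 (1.46), Grhl2 (1.47), Krt18 (1.58) and Esrp2 (1.68) also rose less than Foxe1. Cdh1 (1.96), Krt8 (2.02), Krt5 (2.30), Krt19 (2.45) and Krt15 (2.49) rose more than Foxe1. The part of the epithelial share in the rise of Foxe1 was not tested. Foxe1 overlaps an antisense gene, Gm12446, over 102 exon bases, and the sources used here do not give whether the counting used strand.

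The spread within a group differed between members. Foxf1 and Foxf2 were the steadiest in controls, with an SD of 3.64% and 6.31% of the mean, where the median over all genes was 10.1%. Foxe1 (54.5%), Foxp2 (43.0%), Foxd1 (40.9%) and Foxc2 (40.7%) varied most among controls. Within the controls, Foxf2, Foxd1, Foxd2, Foxp1, Foxl1 and Foxe1 were highest in replicate 1, and Foxc1, Foxc2 and Foxp2 were highest in replicate 2. Within the mutants, replicate 1 was lowest for 8 of the 10 members, all but Foxp1 and Foxe1.

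Several members lie together in the genome. On GRCm38 in GENCODE M21, Foxf1 lies at chr8:121084386-121088144, Foxc2 at chr8:121116171-121118895 and Foxl1 at chr8:121127940-121130644, all on the plus strand, and Foxc2 and Foxl1 are 9.04 kb apart. Foxf1 and Foxl1 were lower in the mutant there while Foxc2, between them, did not pass. Fendrr, a long noncoding RNA that starts 1.27 kb from Foxf1 on the opposite strand, was at 19.9, 20.03 and 18.9 CPM in mutants and 21.6, 21.5 and 24.1 CPM in controls. It did not pass (log2 fold change -0.19, SE 0.10, edgeR adjusted p = 0.139). A second cluster holds Foxf2 at chr13:31625816-31631403 and Foxc1 at chr13:31806633-31812476, both on the plus strand, of which neither passed. Gmds, the next gene 7.10 kb beyond Foxc1, was lower (log2 fold change -0.43, edgeR adjusted p = 0.0162). Foxd1 lies at chr13:98354242-98359305 and Foxe1 at chr4:46343609-46346412, on the plus strand. Foxd2 lies at chr4:114906282-114908873 on the minus strand, 16.3 kb from Foxe3, a lens gene with 0 counts in all 6 libraries. Foxp1 (chr6:98925338-99522721, minus strand) and Foxp2 (chr6:14901349-15441977, plus strand) are long genes with 19 exons each in the longest coding transcript, whereas Foxd1, Foxd2, Foxc1, Foxc2, Foxl1 and Foxe1 are single-exon genes.

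Promoter windows were read for 5 members, Foxf2, Foxd1, Foxd2, Foxc1 and Foxp1, from RefSeq on GRCm38.p6, each from 250 bases before to 50 bases after an annotated start. Of these, Foxd2 and Foxp1 changed in the mutant, in opposite directions, and the 250 bases before a start are shown for both, 5′ to 3′ on the minus strand on which these genes are read, with a TAATTA homeodomain core in capitals. The Foxd2 stretch is chr4:114908899-114909148, and the Foxp1 stretch, before the second of 3 annotated starts, is chr6:99266516-99266765:
Foxd2: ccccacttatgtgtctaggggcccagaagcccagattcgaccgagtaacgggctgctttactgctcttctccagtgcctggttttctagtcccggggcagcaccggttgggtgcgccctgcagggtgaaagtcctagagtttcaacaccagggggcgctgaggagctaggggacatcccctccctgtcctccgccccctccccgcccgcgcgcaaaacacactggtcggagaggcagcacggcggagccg
Foxp1: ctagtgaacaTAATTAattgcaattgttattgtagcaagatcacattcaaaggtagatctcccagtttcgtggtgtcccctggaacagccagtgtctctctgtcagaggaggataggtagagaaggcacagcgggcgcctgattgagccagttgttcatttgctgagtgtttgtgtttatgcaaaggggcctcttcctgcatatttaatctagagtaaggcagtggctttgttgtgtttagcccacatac
Motif cores were searched on both strands. TAATTA, a core bound by many homeodomain factors, was found once, in that Foxp1 window, starting 240 bases before the start, and 5.29% of 32851 windows of the same length hold it. The forkhead core GTAAACA (3.65% of windows) and the GLI core GACCACCCA (0.253% of windows) were not found in the 7 windows of these members. The windows held 71.3% G and C in Foxf2, 57.7% in Foxd1, 67.7% in Foxd2, 67.3% in Foxc1 and 60.3%, 48.7% and 75.3% at the first, second and last start of Foxp1, against a median of 52.7% over all windows.

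Among the other forkhead genes, 34 were in the files and 25 had enough counts to be tested. In the mutant, 10 of the 25 were higher and 3 lower, and 12 did not pass, where 45.8% of all genes tested were called, 24.1% higher and 21.7% lower. Their median log2 fold change was 0.21, and with offsets for GC content and length 6 were lower. The part of the epithelial markers, higher in the mutant as given above, was not tested for these genes. Foxa1, a pioneer factor of endodermal and airway epithelium, was at 94.0, 90.5 and 91.8 CPM in mutants and 24.1, 19.2 and 30.6 CPM in controls (log2 fold change 1.90, SE 0.16, edgeR adjusted p = 0.000289). Foxq1, known from hair, was at 18.5, 27.3 and 30.0 CPM in mutants and 7.04, 5.50 and 6.72 CPM in controls (log2 fold change 1.98, SE 0.21). Foxn1, a factor of thymic and hair epithelium, was at 6.36, 8.34 and 9.14 CPM in mutants and 0.260, 0.396 and 1.15 CPM in controls (log2 fold change 3.69, SE 0.54).

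Among the higher genes with the smallest p were also Foxo6 (log2 fold change 1.28, SE 0.19), Foxi1, known from ionocytes (2.48, SE 0.48), and Foxo3, a target of insulin signalling (0.73, SE 0.15). Foxi1 was low, at 0.545, 1.15 and 1.41 CPM in mutants and 0.235, 0.149 and 0.174 CPM in controls. It was not tested with a minimum of 1 CPM in 3 libraries. Foxi1 and Foxo3 were not called with the Y-linked covariate (edgeR adjusted p = 0.0758 and 0.0845). Foxi3, known from ectodermal placodes and teeth, went the other way. It was at 0.109, 0.333 and 0.614 CPM in mutants and 4.94, 2.69 and 4.67 CPM in controls (log2 fold change -3.54, SE 0.57, edgeR adjusted p = 0.00247). Chosen after its values were seen, Foxj1, the regulator of motile cilia and 1 of the 5 cilia markers above, was at 313, 303 and 297 CPM in mutants and 20.7, 64.7 and 105 CPM in controls. Foxp4, the remaining relative of Foxp1 and Foxp2 in non-immune tissue and also chosen after its values were seen, did not pass (log2 fold change 0.14, edgeR adjusted p = 0.111).

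**Figure D4:**
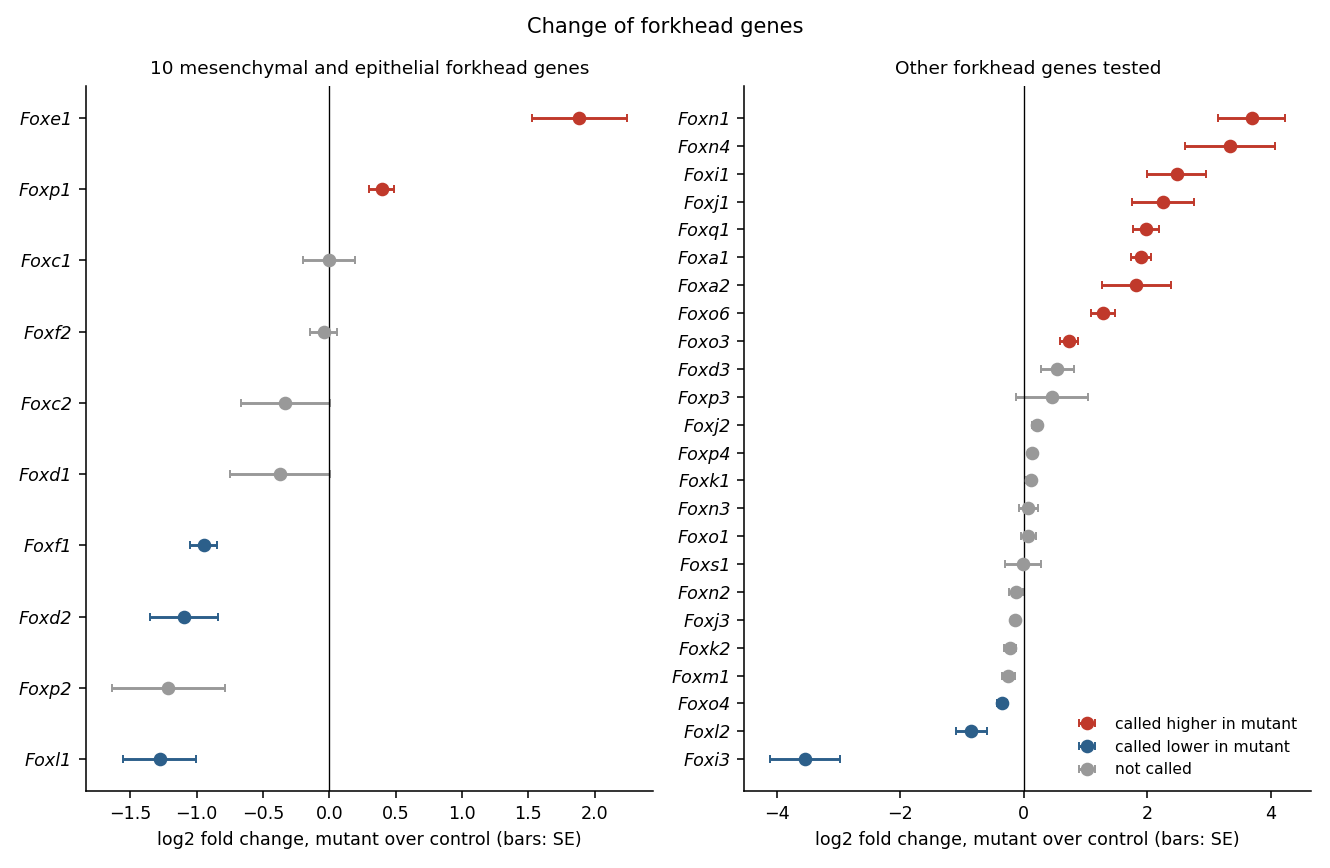
Log2 fold change, mutant over control, of the 10 members and of other forkhead genes tested, with bars for the edgeR standard error and a line at 0; colours mark genes called higher, called lower or not called. Members ran from -1.28 (Foxl1) to 1.88 (Foxe1), and the other forkhead genes from -3.54 (Foxi3) to 3.69 (Foxn1).

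The hedgehog pathway, which acts upstream of Foxf1, Foxf2 and Foxl1 in mouse mesenchyme, was read beside the members. Of 17 genes tested, 6 were lower in the mutant, 3 higher and 8 not called, with a median log2 fold change of -0.17. With 45.8% of all genes tested called, the share of these genes called was near the background and is not a result about the pathway. The lower genes included Gli1, a transcriptional read-out of the pathway, at 77.0, 88.0 and 92.2 CPM in mutants and 126, 179 and 163 CPM in controls (log2 fold change -0.86, SE 0.14, edgeR adjusted p = 0.00231). Kif7, a ciliary regulator (-0.49, SE 0.08), and Gli3, a factor that acts mostly as a repressor (-0.45, SE 0.08), were lower as well. Boc, a co-receptor, was higher (0.61, SE 0.07, edgeR adjusted p = 0.000603). Chosen after their values were seen, the receptor gene Ptch1 (-0.75) was lower, and the ligand gene Shh did not pass (-0.32, edgeR adjusted p = 0.208). Hhip, a hedgehog-induced antagonist also chosen after its values were seen, did not pass either (0.70, SE 0.30, edgeR adjusted p = 0.0897). It was at 63.1, 86.7 and 80.1 CPM in mutants and 25.9, 60.4 and 55.0 CPM in controls, which did not overlap, with the mutants above. The number of higher genes was 1 without control replicate 3 or without mutant replicate 2, and the number of lower genes was 3 with the Y-linked covariate.

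Genes of palatal growth signalling and of bone and cartilage were read in the same way. Over all genes tested, 45.8% were called, 24.1% higher and 21.7% lower, and counts of called genes are to be read beside that. Of 10 genes of the palatal FGF and growth circuit, 1 was higher and 2 lower, which is not a result about the circuit. The higher gene was Fgfr2, a receptor of FGF ligands (log2 fold change 0.39, SE 0.08), and the lower genes were Msx1, a homeobox gene of the anterior palate (-2.07, SE 0.14), and Fgf10, a mesenchymal ligand (-0.46, SE 0.14). Fgf18, a ligand held down by Foxf factors in mouse palate, was at 6.79, 10.6 and 8.79 CPM in mutants and 4.42, 7.22 and 6.80 CPM in controls, which did not pass (0.51, SE 0.25, edgeR adjusted p = 0.134) and was chosen after its values were seen. Of 15 skeletal genes 8 were lower (21.7% of all genes tested were lower) and 7 did not pass, with a median log2 fold change of -1.26. Those with the smallest p were Col2a1, the cartilage collagen (-1.71, SE 0.20), Runx2, the regulator of osteoblast formation (-1.30, SE 0.18), Pth1r (-1.54, SE 0.23) and Ibsp, a bone matrix gene (-5.51, SE 1.08).

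The genes most like Foxf1 and Foxe1 in their pattern were found by the Euclidean distance between log2 CPM values centred on each gene's mean over the 6 libraries. For Foxf1 they were 1500012F01Rik at 0.129, Snrpd2, a core protein of the spliceosome, at 0.130 and Myeov2 at 0.147, where the median over all genes tested was 1.33. For Foxe1 they included Cidea at 0.315 and the receptor phosphatase gene Ptprt at 0.385, where the median was 2.81. Cidea lay under 1 CPM in all 6 libraries. Each distance rests on 6 libraries that share the genotype contrast, so it is a description of likeness only.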

How the data were processed

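RNA was measured in 6 libraries, grouped and numbered by the titles and genotype labels. Raw counts per gene symbol, as whole numbers, were deposited by the authors in 1 file a library. HISAT2, StringTie and the builds mm9 and mm10 are named per the submitters' processing notes, with no versions or roles. The headers of 4 of the 6 files name HISAT2. A header without that name does not show that another aligner was used, and the headers were not set against genotype. The sources used here do not give the read counter, annotation or strand setting. Total counts per library ran from 52668242 to 134813429. Many low counts are even, so reads may not be independent and counting error may be understated. With all counts halved, 3980 genes were called higher and 3555 lower, against 3999 and 3607.

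Counts were analysed with edgeR 4.0.16 in R 4.3.3 (filterByExpr by group, TMM, quasi-likelihood F test, Benjamini-Hochberg adjustment over 16604 genes, threshold 0.05). Each SE was obtained from F and the size of the log2 fold change (its ratio to the root of F). CPM are TMM-scaled, and log2 CPM used a prior count of 2. The fit was tested on simulated data. Alternatives numbered 18, with DESeq2 1.42.0 and limma-voom (limma 3.58.1) among them.

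GENCODE M21 (GRCm38) gave positions and lengths, with 21777 of 23420 symbols matched (93%). The members and gene lists were chosen with earlier results of these data known. Text names all members, up to 4 called genes of each other list by smallest p (up to 8 for other forkhead genes), nearest neighbours, and the 3 genes most like Foxf1 and Foxe1; a few of these genes and some sequences are not reported here, and genes outside the rule are marked as chosen after their values were seen. In the lists of cell type markers, called genes are named where few. Nkx2-5 had too few counts to be tested.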

Additional observations from a re-analysis of the deposited data

How the results depend on the processing

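Foxf1, Foxl1, Foxd2 and Foxe1 kept their direction and call in all 18 alternatives, with log2 fold changes of -1.004 to -0.84, -1.76 to -0.83, -1.64 to -0.73 and 1.12 to 2.38. Foxp1 was lost with the Y-linked covariate (0.21), which left 1 member higher in place of 2. With that covariate 2310 genes were lower in place of 3607, and 3 hedgehog genes lower in place of 6. With offsets for GC content and length, 6 other forkhead genes were lower in place of 3, and 1 hedgehog gene higher in place of 3. Leaving out 1 library at a time gave 1 to 3 hedgehog genes higher. The members lower numbered 4, Foxp2 being added, in 6 alternatives. Genes near 0 changed sign without being called. Foxf2 was at 0.0237 by library size only, and from -0.108 to 0.0911 with libraries left out, positive without mutant replicate 1 (0.06) and without replicate 1 of both groups. Foxd1 ran from -0.597 to 0.288 with libraries left out, positive without replicate 1 of both groups. Foxc1 was at 0.0019 with DESeq2 size factors, 0.0698 by library size only, 0.0282 with a minimum of 1 CPM in 3 libraries, 0.0281 with limma-voom, 0.0327 with the replicate block, 0.0043 with counts halved, 0.0062 with thinned libraries, 0.46 with the Y-linked covariate and from -0.154 to 0.256 with libraries left out, positive without control replicate 2 and without mutant replicate 1. Foxc2 was at 0.33 with the Y-linked covariate and from -0.538 to 0.0476 with libraries left out, positive without control replicate 2. The cause was not tested. With library size only, the median log2 fold change over all genes shifted by 0.07, and 61.0% of calls were higher, against 52.6%.

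Same-numbered libraries deviated together only weakly (correlation across genes 0.0808, 0.0824 and 0.0199), so the numbers were not taken to pair libraries. With the replicate block 3720 genes were higher and 3302 lower, in place of 3999 and 3607, and Foxp2 passed (-1.27, edgeR adjusted p = 0.0345). Depth and genotype coincide in all libraries. With 3 libraries a group, the size of change that could be detected in Foxd1 or Foxc2 was not tested. Their 95% intervals were wide, from -1.26 to 0.51 and from -1.12 to 0.46.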
